A study of Homo sapiens with 2 samples.

Results

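The mitochondrial ribosomal protein genes were examined in the gene table of the RNA-seq experiment. Members were the genes whose symbol is MRPL or MRPS followed by a number and at most 1 letter, which leaves out pseudogenes. This gave 78 of the 27685 listed genes, 49 MRPL genes named for the large subunit and 29 MRPS genes named for the small subunit. The table held 1 library of H2087 cells and 1 library of H596 cells. Both are established human cell lines that the labels call lung adenocarcinoma, both were untreated, and both were grown in RPMI medium with fetal bovine serum. The study took highly expressed genes from the H2087 library, and the question asked here is at what level each member stood in each cell line and where the lines differed. With 1 library per cell line no difference has a replicate check, so no test was possible and every comparison below describes these 2 libraries.

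Mitochondria carry their own ribosome, which translates the few messenger RNAs of the mitochondrial genome into core subunits of the respiratory chain and of ATP synthase. Its ribosomal RNAs are encoded in mitochondria, whereas all of its proteins are encoded in the nucleus, made in the cytosol and imported. Some of these proteins descend from bacterial ribosomal proteins and others were added in the mitochondrial lineage. The large subunit joins amino acids and holds the exit tunnel, and the small subunit reads the messenger RNA.

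All 78 members were expressed in both cell lines, and most stood lower in H596 than in H2087. Levels are given as FPKM, mapped fragments scaled by the length of the transcript and by library size, and differences as H596 minus H2087 on the log2(FPKM + 1) scale, which understates the change of low genes. Of the members, 57 (73.1%) were lower in H596 and 21 were higher, while 44.8% were lower among the tested genes, the 13048 whose FPKM averaged at least 1 over both libraries. The median difference was -0.29 for the members and 0.12 for all tested genes. Past 2-fold, 11 members (14.1%) were lower in H596, beside 14.2% of all tested genes, so levels that far below H2087 were about as frequent among the members as elsewhere. Only MRPL32 (1.28% of the members) was at least 2-fold higher, beside 18.2% of all tested genes. At 1.5-fold, 27 members (34.6%) were lower and 5 (6.41%) were higher, beside 24.0% and 30.6% of all tested genes. With values scaled as TPM the 1.5-fold counts were 20 lower and 12 higher. Few members were thus far higher in H596, and most of the members below their H2087 level were less than 2-fold below it. Measured against the median of all tested genes instead of 0, 60 of the 78 members lay below it. In 13 members, none with a difference above 0.15 in size, the direction changed with at least 1 other scaling of the libraries.

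The estimated counts summed to 46961500 in H2087 and 55387847 in H596, and no member had a count of 0. Members ranged from 843 to 12189 counts in H2087 and from 677 to 9901 in H596, so counting error was small for each of them. The fold interval, a 95% exact interval for the ratio of the 2 counts carried over to FPKM, lay wholly below 1 for 52 members, wholly above 1 for 18 and held 1 for 8. It covers counting error only, not the spread between cultures. It was computed for the members only, so no share over all tested genes stands beside these counts. Both libraries had the epithelial markers EPCAM, CDH1, KRT8 and KRT18, at 52.3 to 3607 FPKM in H2087 and 59.6 to 536 in H596. The adenocarcinoma marker KRT7 was high in both (791 and 608 FPKM), but NKX2-1, a lung lineage factor, was at 110.0 FPKM in H2087 and 0.508 in H596, and SFTA3, FOXA2 and NAPSA were below 0.2 in H596. The squamous markers KRT5, TP63, DSG3 and KRT6A were at 33.9 to 106 FPKM in H596 and at 0 to 1.48 in H2087, with SOX2 at 39.1 in H2087 and 56.5 in H596. The H596 library therefore lacks most of the listed markers of its labelled tumor type, and SFTPB, a surfactant gene of that list, was below 0.2 in both libraries. The defining leukocyte markers PTPRC and CD3E were at 0 in both, CD68 was at 128 FPKM in H2087 and 25.6 in H596, and the neuroendocrine and endothelial markers were below 1 in both, while of 5 stromal markers DCN was at 9.77 FPKM in H596 and 0 in H2087, COL1A1 was at 3.89 in H2087 and 0.916 in H596, and the others were below 0.1. In such bulk samples fewer cells of a type and less RNA per cell cannot be told apart. Whether this difference in cell identity has a part in the lower member levels was not tested, and 1 library of each line cannot tell cell line and library apart.

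**Figure D1:**
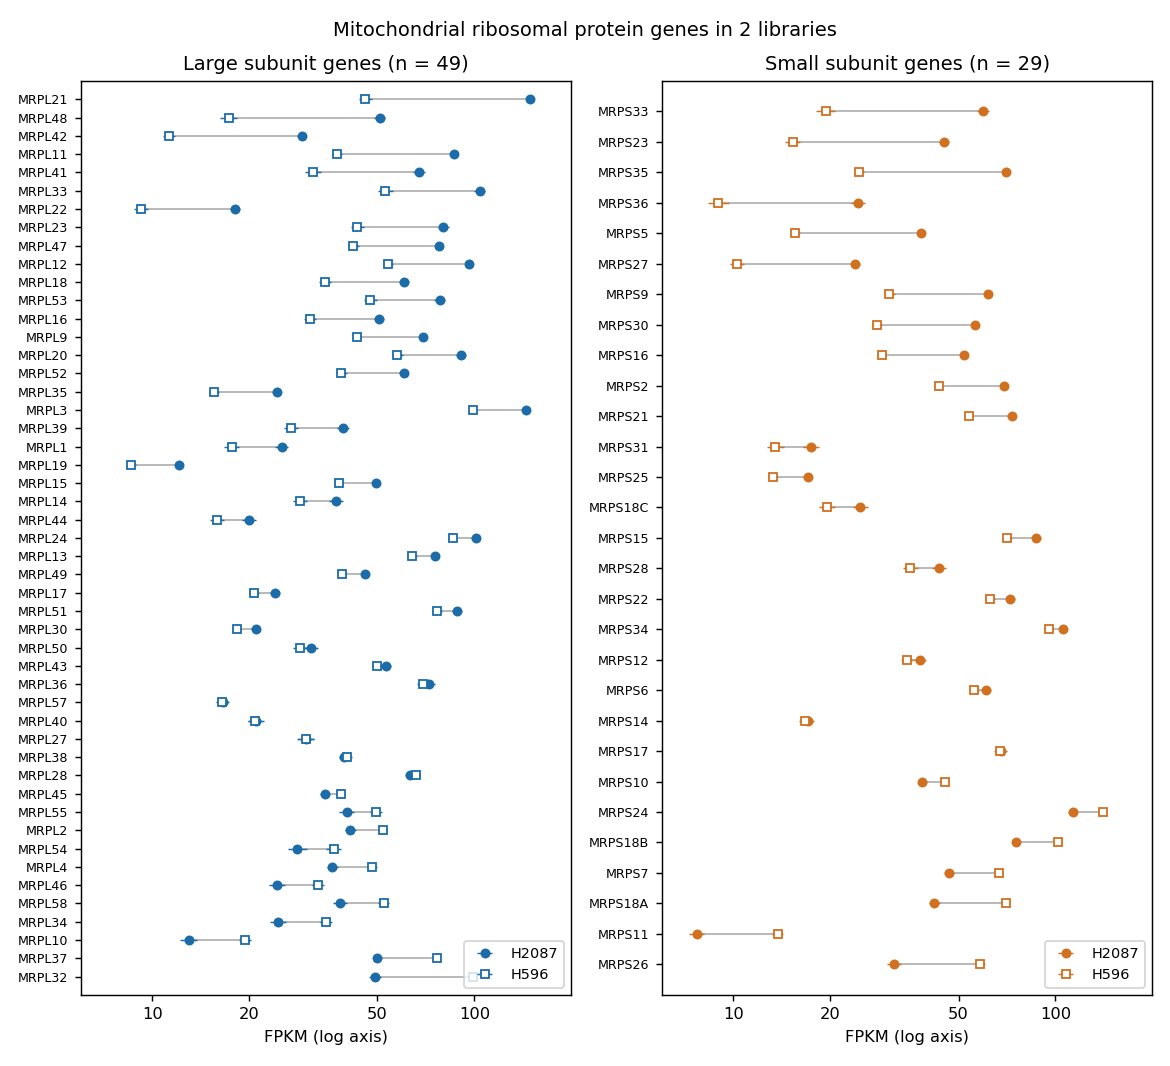
FPKM of every member in H2087 (filled circles) and H596 (open squares) on a log axis, large subunit genes on the left and small subunit genes on the right, ordered by the difference from lower to higher in H596. Horizontal bars at the points are 95% Wilson intervals for counting error and are mostly narrower than the symbols. The open square lies left of the filled circle for 57 of the 78 genes, with MRPL21 and MRPS33 at the top and MRPL32 and MRPS26 at the bottom.

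Promoter sequences are shown for members on which the results turn. They are RefSeq windows from 250 bases before to 50 bases after the annotated start, 300 bases in all, written in the direction of transcription and placed on GRCh37 by exact match. Capitals mark the letters of 6 short motifs, each searched on both strands. NRF1 was searched as GCATGCGC. The letters CCGGAAG stood for ETS factors such as GABP, and AAGATGG for YY1. Factors of the SP and KLF families were searched as GGGCGG. The CCAAT box was searched by those letters, and the TATA box as TATAAA. A match is a match of letters, not a bound site, and where motifs overlap all of their letters are in capitals.

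By the mean of both libraries the highest member was MRPS24, the counterpart of the bacterial small subunit protein that lines the messenger RNA entry. It stood at 113 FPKM (95% Wilson interval 109.6 to 117) in H2087 and at 140.2 FPKM (137 to 144) in H596, ranking 3 and 1 among the members. MRPS24 was the only member at 100 FPKM or more in both libraries, 100 being the study's threshold for high expression, and it was 1.24-fold higher in H596. Its window is shown because it heads the group (chr7:43909067-43909366, minus strand) and holds SP/KLF letters at 2 upstream positions and the YY1 letters just after the start.
MRPS24: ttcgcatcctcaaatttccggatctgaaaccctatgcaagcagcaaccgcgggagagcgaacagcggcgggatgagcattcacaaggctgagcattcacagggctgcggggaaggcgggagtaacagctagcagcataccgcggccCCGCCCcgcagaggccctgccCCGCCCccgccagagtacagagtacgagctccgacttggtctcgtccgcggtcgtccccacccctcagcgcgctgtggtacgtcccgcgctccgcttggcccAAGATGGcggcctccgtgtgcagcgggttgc

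In H2087, 6 members reached 100 FPKM. They were MRPL21 (148 FPKM), MRPL3 (144), MRPS24, MRPS34 (106), MRPL33 (104) and MRPL24 (101). MRPL3 and MRPL21 have bacterial counterparts in the large subunit, and MRPL3 reaches towards the peptidyl transferase center. In H596 only MRPS24 and MRPS18B (102 FPKM, from 75.2 in H2087) did so, and MRPL32 (99.0) and MRPL3 (98.9) stood just below. Of the 6 members at this level in H2087, 5 were below it in H596, among them MRPS34, MRPL33 and MRPL24, which were just above it in H2087. The same overlap was not computed over all tested genes, so no share stands beside this count. Among all 13048 tested genes, 704 reached 100 FPKM in H2087 and 637 in H596, beside 6 and 2 of the 78 members.

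At the other end, MRPS11 had 7.70 FPKM in H2087 and 13.7 in H596, and MRPL19 had 12.1 and 8.60. MRPL22 (18.1 and 9.22), MRPS25 (17.0 and 13.2) and MRPS31 (17.4 and 13.5) were the next lowest by the mean of both. MRPL19 was low per length and not by count. Its listed transcript is 7827 bases long and it had 4534 counts in H2087, more than MRPL24, whose 4411 counts fell on 911 bases and gave 101 FPKM. The highest member exceeded the lowest 19.3-fold in H2087 and 16.3-fold in H596.

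Most members were nonetheless well expressed genes. In H2087, 77 of the 78 lay above the median of tested genes (9.23 FPKM), and in H596 74 did (10.5 FPKM). The median member stood at 46.3 FPKM in H2087 and 37.7 in H596. Across the 78 genes the FPKM order in the 2 libraries was similar (Spearman's rho 0.73). Longer transcripts had lower FPKM (rho -0.51 in H2087 and -0.52 in H596), but FPKM is divided by length, so this relation is partly built in. The estimated counts in H2087 went the other way, with more counts for longer transcripts (rho 0.37). The difference between libraries had little relation to transcript length (rho -0.09). These are correlations across genes that share a library, a depth and a length estimate, and genes are not independent replicates. All members together held 248083 counts (0.528%) in H2087 and 232474 counts (0.420%) in H596, a lower sum in the deeper library.

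The large and small subunit genes shifted by similar amounts. The large subunit genes had medians of 45.7 FPKM in H2087 and 38.5 FPKM in H596, and the small subunit genes had 46.8 and 34.5. The median difference was -0.23 for the 49 large subunit genes (quartiles -0.70 and 0.03) and -0.29 for the 29 small subunit genes (quartiles -0.98 and -0.0027), so the quartile ranges overlapped for most of their length. Of the large subunit genes 35 (71.4%) were lower in H596, and of the small subunit genes 22 (75.9%). Past 2-fold, 5 large subunit genes were lower and 1 was higher, and 6 small subunit genes were lower and none was higher. The share past 2-fold lower was thus 10.2% of the large and 20.7% of the small subunit genes, around the 14.2% of all tested genes. At 1.5-fold the shares were 34.7% and 34.5%.

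Symbols do not always give the place of the protein. In the structure of the human mitochondrial ribosome MRPS18A and MRPS30 are in the large subunit, and MRPS36 is now known as a component of the 2-oxoglutarate dehydrogenase complex. MRPS18A was at 42.1 FPKM in H2087 and 70.2 in H596, MRPS30 at 56.1 and 27.9, and MRPS36 at 24.4 and 8.97. With these 3 genes placed by structure, the medians of the difference were -0.23 for 51 large subunit genes and -0.29 for 26 small subunit genes, and 5 genes of each were at least 2-fold lower.

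The genes were also split by origin. Among small subunit genes, the 18 with a bacterial counterpart had a median difference of -0.13, with 12 lower in H596 and 1, MRPS5, past 2-fold. The 11 without a counterpart had a median of -0.98, with 10 lower and 5 of them past 2-fold, namely MRPS33, MRPS23, MRPS35, MRPS36 and MRPS27. MRPS26 was the exception, at 31.5 FPKM in H2087 and 58.3 in H596. Their median level was 45.0 FPKM in H2087 and 19.3 in H596, against 49.3 and 44.4 for the genes with a counterpart. In the large subunit the medians were -0.41 for the 28 genes with a bacterial counterpart and -0.11 for the 21 without. Genes are placed here by symbol, so the 11 include MRPS30, whose own value is the median of -0.98, and MRPS36. Placed by structure, an alternative chosen after seeing the data, 9 small subunit genes without a counterpart were left, and their median was -0.35, with 8 lower and 4 of them past 2-fold. The medians by structure were then -0.13 for the 17 small subunit genes with a counterpart, and -0.38 and -0.16 for the 29 large subunit genes with one and the 22 without. The low median of the small subunit genes without a counterpart thus rests on where MRPS30 and MRPS36 are placed. The split was made with earlier results of these data known, its groups are small, and it was not tested.

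**Figure D2:**
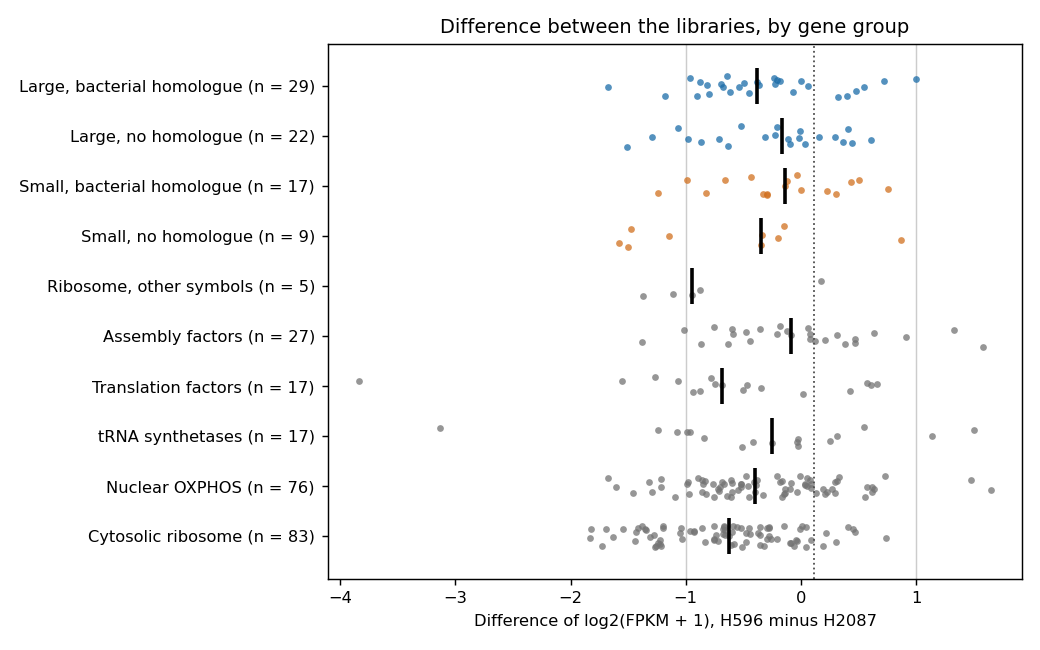
Difference of log2(FPKM + 1), H596 minus H2087, for large subunit genes (blue) and small subunit genes (orange), placed by structure (MRPS36 left out) and split by a bacterial counterpart, and for 6 other gene lists (grey). Each point is 1 gene, black bars are group medians, the dotted line is the median of all tested genes (0.12) and thin lines mark 2-fold. The points of the 4 subunit groups overlap, and their medians lie between -0.38 and -0.13.

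Among the 11 members at least 2-fold lower in H596, MRPL21, which has a bacterial counterpart in the large subunit, stood furthest below its H2087 level. The gene, at chr11:68658746-68671303 on hg19, had 4969 counts and 148 FPKM (interval 144 to 153) in H2087 and 1818 counts and 45.9 FPKM (43.8 to 48.1) in H596, 3.24-fold lower (interval 3.07 to 3.42). It moved from first to 29th among the members. MRPS33, a small subunit protein without a bacterial counterpart, was at 59.7 FPKM in H2087 and 19.3 in H596, 3.09-fold lower (2.84 to 3.36). MRPL48, part of the central protuberance at the top of the large subunit, was at 50.8 FPKM in H2087 and 17.3 in H596, 2.95-fold lower (2.74 to 3.18). The windows of the latter genes are shown because they stood furthest below H2087 of the members with a window. The MRPS33 window (chr7:140714703-140715002, minus strand) holds SP/KLF and ETS/GABP letters at the start, and the MRPL48 window (chr11:73498669-73498968, plus strand) holds ETS/GABP letters only and is 43.3% G and C.
MRPS33: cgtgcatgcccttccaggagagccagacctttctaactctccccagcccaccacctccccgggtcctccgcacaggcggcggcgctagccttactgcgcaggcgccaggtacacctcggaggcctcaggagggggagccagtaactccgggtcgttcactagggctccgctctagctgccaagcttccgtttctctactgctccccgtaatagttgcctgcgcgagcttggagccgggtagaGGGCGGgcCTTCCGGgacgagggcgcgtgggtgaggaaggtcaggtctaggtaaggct
MRPL48: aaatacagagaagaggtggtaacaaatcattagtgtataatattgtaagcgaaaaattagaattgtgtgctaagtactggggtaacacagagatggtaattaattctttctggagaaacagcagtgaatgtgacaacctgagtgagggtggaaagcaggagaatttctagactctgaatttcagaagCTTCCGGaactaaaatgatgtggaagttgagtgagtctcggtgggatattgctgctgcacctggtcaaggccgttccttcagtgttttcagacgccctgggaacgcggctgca

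Next came MRPS23 (45.0 FPKM in H2087 and 15.3 in H596), MRPS35 (70.0 and 24.6) and MRPS36 (24.4 and 8.97), 2.95-fold, 2.85-fold and 2.72-fold lower in H596. MRPL42 stood at 29.1 and 11.3 FPKM. MRPS5, the counterpart of a bacterial protein known for its part in decoding accuracy, stood at 38.1 and 15.5. MRPL11, at the base of the stalk that recruits translation factors, stood at 86.1 and 37.4. MRPS27, a pentatricopeptide repeat protein of the small subunit, had 23.9 and 10.3 FPKM, and MRPL41 had 67.3 and 31.5. For each of these 11 genes the interval of the fold lay wholly below 1. With counts of this size that follows from the choice at 2-fold, so it is no separate support for these 11 genes. In every alternative scaling of the libraries, 10 of them stayed at least 2-fold lower, the exception being MRPL41 (-0.90 with TPM). By the highest single transcript of each gene 9 of the 11 stayed so, without MRPS5 and MRPS27 (-0.73 each), and MRPL33 (-1.61) and MRPL18 (-1.54) passed the threshold. MRPL41 had the smallest difference inside the threshold (-1.07). Just outside it were MRPS9 (61.6 and 30.5 FPKM, -0.99) and MRPS30 (-0.98), whose FPKM ratios of 2.02 and 2.01 are brought under the threshold by the pseudocount, and MRPL33 (104 and 52.9 FPKM, -0.96).

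MRPL32 stood furthest above its H2087 level in H596. The gene is at chr7:42971939-42977453 on hg19, and its protein has a bacterial counterpart and is known to be cut by the mitochondrial m-AAA protease before it enters the large subunit. It had 2094 counts and 49.0 FPKM (46.9 to 51.1) in H2087 and 5013 counts and 99.0 FPKM (96.3 to 102) in H596, 2.02-fold higher (1.92 to 2.13). Its difference lay at the threshold, and it fell under 2-fold with TMM, DESeq2 or centred scaling. Its window is shown because it alone passed 2-fold upward (chr7:42971725-42972024, plus strand) and because it holds letters of 4 of the 6 motifs, YY1, SP/KLF, CCAAT and NRF1.
MRPL32: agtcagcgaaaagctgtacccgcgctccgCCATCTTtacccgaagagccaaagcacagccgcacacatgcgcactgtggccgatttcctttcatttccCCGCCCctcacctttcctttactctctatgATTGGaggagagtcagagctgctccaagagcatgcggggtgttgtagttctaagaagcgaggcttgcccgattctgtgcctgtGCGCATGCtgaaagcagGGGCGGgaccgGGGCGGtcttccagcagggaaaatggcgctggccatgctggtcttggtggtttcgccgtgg

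MRPS26 (31.5 FPKM in H2087 and 58.3 in H596) was 1.85-fold higher in H596, MRPS11 (7.70 and 13.7) 1.78-fold and MRPS18A (42.1 and 70.2) 1.67-fold. MRPL37, a large subunit protein without a bacterial counterpart, was at 49.9 and 76.5 FPKM. These 4 and MRPL32 are all of the members past 1.5-fold upward. The MRPS18 paralogs, counterparts of the same bacterial protein, differed among themselves. MRPS18A and MRPS18B (75.2 and 102 FPKM) were higher in H596 and MRPS18C (24.8 and 19.5) was lower.

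Within the large subunit, 3 of the 4 stalk genes and 3 of the 4 exit tunnel genes stood lower in H596. Of all 49 large subunit genes 35 (71.4%) did so, and so the direction alone does not set these small groups apart. Of the 4 stalk genes, MRPL11, MRPL12 (95.9 FPKM in H2087 and 54.1 in H596) and MRPL53 (78.1 and 47.4) were at least 1.5-fold lower, whereas MRPL10, which anchors MRPL12 to the ribosome, was at 13.0 and 19.4 FPKM. The low level of MRPL10 set it apart from its partners in both libraries, at 76th of 78 in H2087. Of the 4 genes around the exit tunnel, MRPL22 and MRPL23 (80.1 and 43.3 FPKM) were at least 1.5-fold lower, MRPL24 was at 101 and 85.5, and MRPL45 was at 34.4 and 38.5. The median differences were -0.76 for the stalk and -0.55 for the exit tunnel genes. The 6 genes of the central protuberance had a median difference of -0.0024, with MRPL48 and MRPL18 (60.4 and 34.3 FPKM) at least 1.5-fold lower, and the fold intervals of MRPL27, MRPL38 and MRPL40 held 1. MRPS12, at the decoding center of the small subunit, was at 38.0 and 34.5 FPKM.

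Some members differed between the libraries in transcript makeup, with or without a difference in level. Of the 39 members with more than 1 listed transcript, 15 had a transcript whose share of the gene's FPKM changed by at least 10 percentage points. Transcript shares were not computed for other genes, so whether such changes are more frequent in the members is not known. MRPL43 is an example of a level that hardly moved (53.2 FPKM in H2087 and 49.9 in H596) while its main transcript NM_032112 went from 93.9% to 56.7% of the FPKM and NM_176793 from 1.93% to 24.0%. In MRPL18 the coding transcript NM_014161 held 83.7% in H2087 and 48.6% in H596, where the noncoding transcripts NR_134862 and NR_134861 held 15.3% and 14.6%.

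The leading transcript itself differed in 2 members. In MRPL33, NM_004891 held 81.3% in H2087 and 49.1% in H596, and NM_145330 held 18.7% and 50.9%. In MRPS25, NM_022497 held 59.1% and 38.9%, and the noncoding NR_135247 held 33.1% and 57.5%. These shares are estimates that StringTie made from overlapping transcripts. MRPS25 also overlaps NR2C2 (3.58 FPKM in H2087 and 11.2 in H596) and MRPL43 overlaps SEMA4G (3.73 and 0.155), and the strand setting is not given in the sources used here.

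**Figure D3:**
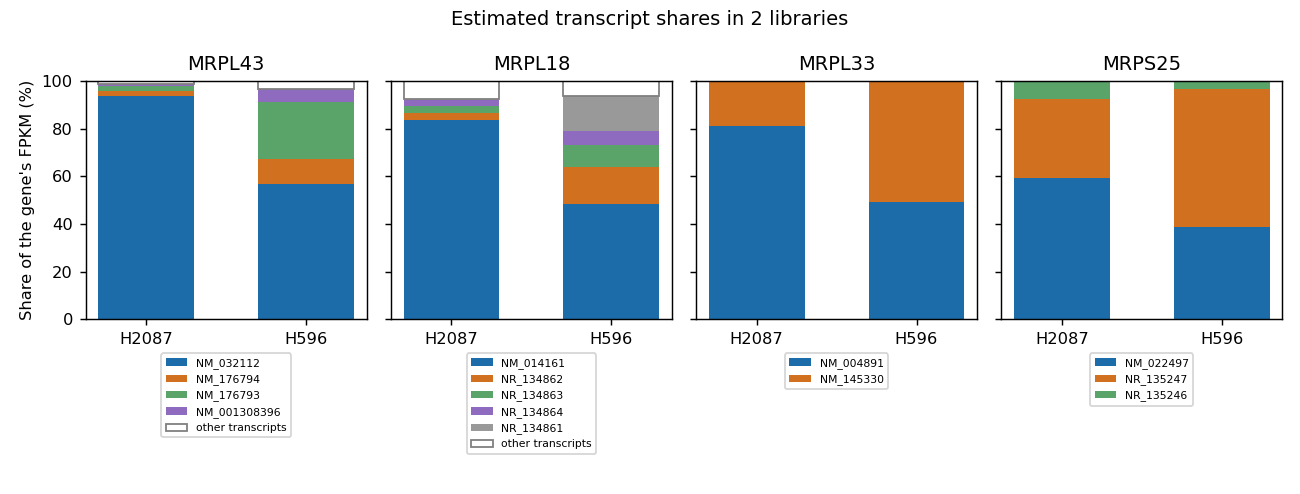
Share of the gene's FPKM (%) held by each listed transcript of MRPL43, MRPL18, MRPL33 and MRPS25 in the H2087 and H596 libraries. Transcripts under 5% in both libraries are joined as other transcripts. The transcript at the bottom (blue) holds the largest share in H2087 for all 4 genes and a smaller share in H596, where it no longer leads in MRPL33 and MRPS25.

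In all, 20 members overlap another listed gene, and their values depend on how shared reads were divided. MRPL49 overlaps FAU, a cytosolic ribosomal protein gene at 511 FPKM in H2087 and 210.3 in H596, by 18 bases only, and MRPS24 shares its locus with the readthrough gene URGCP-MRPS24 (0.644 and 4.19 FPKM). The 58 members without such an overlap had the same median difference, -0.29, and included all 11 members at least 2-fold lower.

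The members lie on 21 chromosomes, and some chromosomes held members that differed the same way. All 8 members on chromosome 2, all 7 on chromosome 11 and all 5 on chromosome 5 were lower in H596, with medians of -0.66, -0.87 and -0.98. So were all 4 on chromosome 3 and all 3 on each of chromosomes 8, 9 and 12. Of all members 73.1% were lower, and the share of all tested genes was not computed by chromosome. On chromosome 6, 4 of 6 members were higher, on chromosome 19, 3 of 4, and on chromosome 17, 6 of 8. The 6 on chromosome 17 include MRPL27 (0.0047) and MRPL38 (0.032), whose fold intervals held 1. The interval of MRPL36 (-0.068), counted as lower on chromosome 5, held 1 as well. The genes around the members were compared in the same way, as the median difference of the 20 nearest other tested genes. Member and neighbour differences were related across the 78 members (Spearman's rho 0.50), and 54 members (69.2%) lay on the same side of the all-gene median as their neighbours, beside 64.7% of the other tested genes. By sign alone 49 members (62.8%) went with their neighbour median, beside 64.4% of the other tested genes, so these shares are near the background. Nearby members share neighbours, so these 78 points are not independent.

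For several members past 2-fold the neighbours stood on the same side. The neighbours of MRPS36 and MRPS27, both on chromosome 5, had medians of -0.69 (18 of 20 lower in H596) and -0.68 (17 of 20). Around MRPL21 the median was -0.58, with 15 of 20 lower, and around MRPL42 it was -0.72 although only 11 of 20 were lower and 9 were higher. MRPL32 lay among genes with a median of 0.55, of which 16 of 20 were higher. The neighbours of MRPS33, MRPS5 and MRPL41 had medians of -0.34, -0.25 and -0.21. Around MRPS23 and MRPS35 the medians were smaller in size, -0.12 and -0.09, each with 11 of 20 lower and 9 higher. For MRPL11 the neighbours were evenly split, 10 lower and 10 higher. Of the members past 2-fold, only MRPL48 had a neighbour median of the other sign, at 0.17. Around MRPS10 (38.6 FPKM in H2087 and 45.3 in H596) and MRPL2 (41.2 and 51.9) on chromosome 6, all 20 neighbours were higher in H596, with medians of 0.88 and 1.09.

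**Figure D4:**
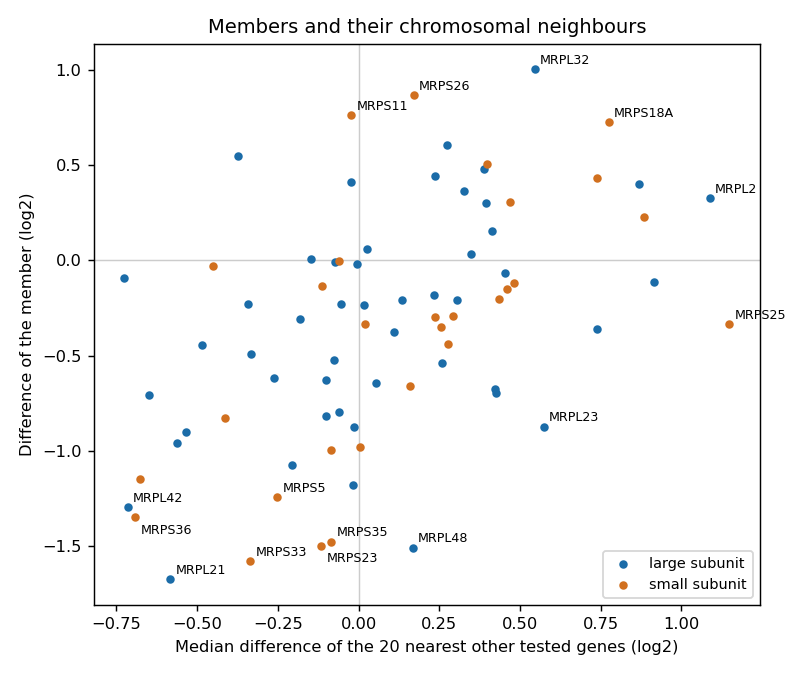
Difference of each member (log2, vertical) against the median difference of its 20 nearest other tested genes on the chromosome (log2, horizontal), for large (blue) and small (orange) subunit genes, with selected members named. MRPL21, MRPS36 and MRPL42 lie at the lower left and MRPL32 and MRPS18A at the upper right, while MRPL48 and MRPL23 lie low over neighbours that were higher in H596.

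MRPL46 and MRPS11 form a pair of members that start from the same stretch of DNA on opposite strands, with annotated starts 320 bases apart. MRPL46, in the central protuberance, was at 24.3 FPKM in H2087 and 32.7 in H596, and MRPS11, on the platform of the small subunit, at 7.70 and 13.7. Both were higher in H596, with fold intervals of 1.25 to 1.45 and 1.67 to 1.91. Their 20 neighbours had a median of -0.02, so the pair stood above its surroundings. Their windows are shown because they share 181 bases (chr15:89010570-89010869, minus strand, and chr15:89010689-89010988, plus strand). The MRPL46 window holds the YY1 letters after its start, outside the shared stretch, and the MRPS11 window holds none of the 6 motifs.
MRPL46: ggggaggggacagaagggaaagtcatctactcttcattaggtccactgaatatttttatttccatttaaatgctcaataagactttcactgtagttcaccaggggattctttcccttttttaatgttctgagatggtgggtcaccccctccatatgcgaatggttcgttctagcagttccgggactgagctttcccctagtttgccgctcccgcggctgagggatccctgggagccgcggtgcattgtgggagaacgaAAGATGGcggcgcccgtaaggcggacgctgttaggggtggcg
MRPS11: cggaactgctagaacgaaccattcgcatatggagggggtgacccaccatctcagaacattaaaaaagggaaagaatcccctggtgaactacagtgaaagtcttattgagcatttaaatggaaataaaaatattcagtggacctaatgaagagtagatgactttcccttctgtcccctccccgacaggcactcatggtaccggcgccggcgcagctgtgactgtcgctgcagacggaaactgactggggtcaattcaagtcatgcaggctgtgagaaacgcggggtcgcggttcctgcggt

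Such head-to-head arrangements were frequent among the members. In the GENCODE annotation, 27 of the 78 members (34.6%) had a protein-coding gene starting within 1000 bases on the opposite strand, beside 1611 of 11419 tested genes (14.1%). Of the 24 pairs in which both genes were tested, 18 (75%) differed in the same direction, beside 435 of 680 such pairs without a member (64.0%). MRPL49 shares its start region with FAU, MRPL47 (77.8 and 42.1 FPKM) with NDUFB5, a complex I subunit (93.1 and 80.6), and MRPL43 with TWNK, the mitochondrial DNA helicase (15.2 and 6.09). MRPL18 was paired with TCP1, a chaperonin subunit (119 and 55.8 FPKM), and MRPL32 with PSMA2, a proteasome subunit (101 and 140.1). MRPL14 (37.2 and 28.7 FPKM) went against its partner TMEM63B, which was at 12.6 in H2087 and 39.2 in H596. MRPS12 was paired with SARS2, the mitochondrial seryl-tRNA synthetase (17.6 FPKM in H2087 and 1.46-fold lower in H596), with 181 bases between the starts. The MRPS12 window is shown because both genes of this pair serve mitochondrial translation (chr19:39421334-39421633, plus strand). It holds letters of 4 of the 6 motifs, with the CCAAT letters 4 times.
MRPS12: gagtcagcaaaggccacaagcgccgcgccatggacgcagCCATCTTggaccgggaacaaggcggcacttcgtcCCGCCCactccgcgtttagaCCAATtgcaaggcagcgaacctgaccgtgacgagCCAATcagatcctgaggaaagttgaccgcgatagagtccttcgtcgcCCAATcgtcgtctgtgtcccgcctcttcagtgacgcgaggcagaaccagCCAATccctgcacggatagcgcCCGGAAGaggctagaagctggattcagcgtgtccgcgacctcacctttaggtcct

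The ETS/GABP and YY1 letters were the motifs that stood furthest above their share among tested genes. A RefSeq window was matched to 70 members. MRPL2, MRPL10, MRPL13, MRPL15, MRPL21, MRPL23, MRPL35 and MRPS28 are named only. The ETS/GABP letters were in the windows of 30 members (42.9%), beside 23% of 10325 tested genes and 12.2% of all 27305 genes with a window. The YY1 letters were in 24 members (34.3%), beside 9.54% and 7.11%. The NRF1 letters were in 6 members (8.57%, beside 6.57% of tested genes) and the TATA box letters in 4 (5.71%, beside 8.51%). The SP/KLF letters (61.4%) and the CCAAT letters (32.9%) were less frequent in the members than in tested genes (77.4% and 43.5%), and the member windows had a median of 60.3% G and C and were thus poorer in G and C than those of tested genes. These shares were not tested.

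The YY1 letters lay mostly in 1 place. In 17 members (24.3%) they were on the transcribed strand within the 50 bases after the start, as in the MRPS24 and MRPL46 windows above, which was so for 4.31% of tested genes. AAGATGG contains ATG, the start codon, so a match after the start can also be the beginning of the coding sequence. Large and small subunit genes held both motifs at similar shares, 42.9% of each for ETS/GABP and 35.7% and 32.1% for YY1. Members with and without a motif differed between the libraries as follows. The median difference was -0.27 for members with the ETS/GABP letters and -0.27 for those without, and -0.12 and -0.34 for YY1. The genes that encode these factors were expressed in both libraries. YY1 stood at 42.2 FPKM in H2087 and 47.1 in H596, GABPA at 5.93 and 7.39, and NRF1 at 4.39 and 6.21. GABPB1, the other GABP gene listed, was lower in H596 by FPKM, at 13.6 and 10.6. Its estimated counts were 1189 in H2087 and 1636 in H596, a larger share of the total in H596, so its direction depends on the measure.

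**Figure D5:**
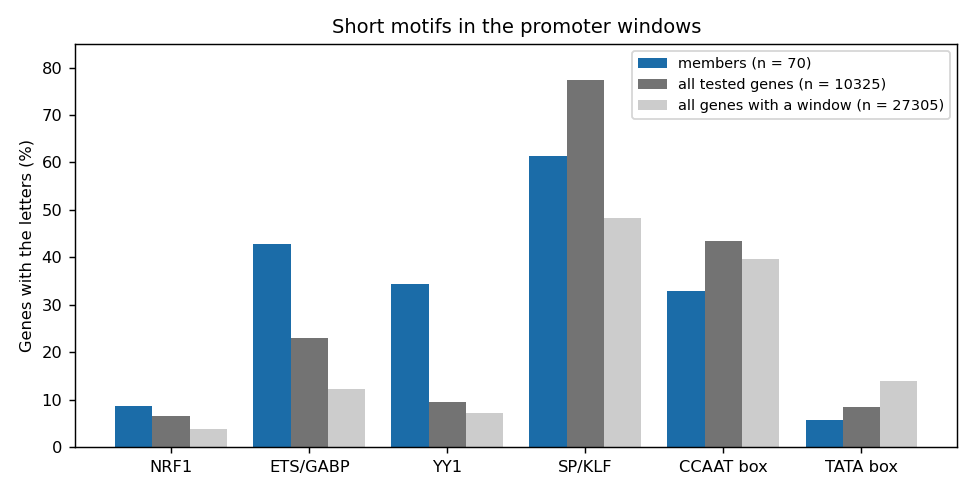
Share (%) of genes whose promoter window holds each of 6 short motifs on either strand, for the 70 members with a window (blue), all tested genes with a window (dark grey) and all genes with a window (light grey). The members stand above the tested genes most clearly for ETS/GABP (42.9% beside 23%) and YY1 (34.3% beside 9.54%) and below them for SP/KLF and CCAAT.

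Other genes of mitochondrial translation are given beside the members to show what the ribosomal proteins had in common with them. Of the 5 ribosomal proteins without an MRP symbol, DAP3, a GTP-binding small subunit protein, was at 116 FPKM in H2087 and 44.4 in H596, and PTCD3, a pentatricopeptide repeat protein of the small subunit, at 26.8 and 11.9. The small subunit proteins CHCHD1 and AURKAIP1 were 1.98-fold and 1.85-fold lower, whereas the large subunit protein GADD45GIP1 was at 65.6 and 74.4. The median of these 5 was -0.95, below that of the members. The 27 assembly factors had a median of -0.08, above that of the members, with 2 at least 2-fold lower (GTPBP10 and NOA1, both GTPases) and 2 higher (MTG2, a GTPase, and MRM2, a ribosomal RNA methyltransferase at 21.8 and 67.3 FPKM).

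The 17 translation factors had a median of -0.69 and included the largest difference of all these lists. TSFM, the elongation factor that exchanges the GDP bound to TUFM, had 15175 counts and 157 FPKM in H2087 and 1162 counts and 10.1 FPKM in H596. GUF1, LRPPRC and MTRF1L were also at least 2-fold lower, and none of the 17 was 2-fold higher. Of 17 mitochondrial aminoacyl-tRNA synthetases, YARS2 (76.0 and 7.75 FPKM), NARS2 and MARS2 were at least 2-fold lower and VARS2 and FARS2 higher, with a median of -0.25. The 9 genes of mitochondrial transcription and DNA had a median of -0.44, with TWNK past 2-fold. Of 8 tested biogenesis regulators only MYC passed 2-fold, at 225 FPKM in H2087 and 39.5 in H596.

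The median difference of the members (-0.29) lay between that of the assembly factors and those of the respiratory chain and the cytosolic ribosome. The 76 tested nuclear subunits of oxidative phosphorylation had a median of -0.39, with 8 at least 2-fold lower and 2 higher. The 83 tested cytosolic ribosomal protein genes had a median of -0.62, with 72 lower and 25 (30.1%) at least 2-fold lower. The median FPKM of the members was well below that of both lists, which stood at 109.0 (oxidative phosphorylation) and 966 (cytosolic ribosome) in H2087. These differences between lists were not tested, and all share the same 2 libraries.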

How the data were processed

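RNA was measured in 1 library of H2087 cells and 1 library of H596 cells. The authors isolated total RNA with TRIzol, prepared TruSeq stranded mRNA libraries and sequenced them on an Illumina HiSeq4000. The submitters' processing notes name bcl2fastq 1.8.4, Trimmomatic, HISAT2 2.0.5, StringTie 1.3.3b and the build hg19. Whether reads were paired and how strand was set are not given in the sources used here. For genes and transcripts the authors deposited estimated counts, which are whole numbers derived in a way that is not stated. They also deposited FPKM, in which length and library size are divided out, and it was used unchanged.

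Genes averaging at least 1 FPKM were compared by log2(FPKM + 1), H596 minus H2087, and called by fixed sizes of 2-fold and 1.5-fold. No test across genes was run, because there was 1 library per cell line. Levels carry 95% Wilson intervals of the gene's share of the total count, and folds carry exact intervals of the ratio of counts (scipy 1.17.1). Alternatives were counts scaled to the library total, TMM (edgeR 4.0.16) and DESeq2 1.42.0 size factors in R 4.3.3, TPM, centring, other pseudocounts, filters and thresholds, single transcripts, and subunits by structure. The calls and intervals were tested on counts simulated with counting error only and with planted changes well past 2-fold. This covers neither the spread between cultures nor calls near the 2-fold and 1.5-fold sizes. Promoter windows are from RefSeq. Head-to-head genes are from GENCODE mapped to GRCh37. Python 3.11.15, numpy 2.4.6, pandas 2.3.3 and matplotlib 3.10.9 were used.

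The members, gene lists, markers and motifs were chosen with earlier results of these data known. Genes named are the 5 highest and 5 lowest members by mean FPKM, the 5 largest differences each way, members past 2-fold, members of the stalk, exit tunnel and MRPS18 groups, MRPS12, MRPS30, MRPS36, members whose leading transcript changed, and up to 4 members past 2-fold of each other list. The remaining members, the divergent partners and overlapping genes named, and the members named for their neighbours or transcript shares were picked with their values in view. ChIP-seq data were not used here.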

Additional observations from a re-analysis of the deposited data

How the results depend on the processing

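Of 110 alternative values, 71 moved little and 39 moved. None of the median differences among them changed sign. The other values are gene counts, FPKM levels and shares, which cannot be negative and so could not change sign. The 71 include the values with a filter of mean FPKM at least 10 and with no filter. These could not move, because all 78 members pass both filters. No paired analysis was possible because H2087 and H596 have 1 library each. Leaving out a library was likewise not possible, and depth bears on counting error only. Scaling shifted the median difference of all tested genes from 0.12 to 0.01 (TMM), 0.02 (DESeq2) and 0.30 (TPM), and the members moved with it. The median differences of all members, large and small subunit genes were -0.42, -0.37 and -0.42 with TMM, -0.40, -0.35 and -0.41 with DESeq2 size factors, -0.11, -0.054 and -0.11 with TPM, and -0.41, -0.35 and -0.41 after centring on all tested genes. The count of members at least 2-fold higher in H596 was 0 with TMM, with DESeq2 size factors and after centring, and 2 with TPM. With TPM 12 members were at least 1.5-fold higher and 20 lower, beside 5 and 27 as reported. The direction of 13 members flipped in at least 1 of 5 scalings, none with a difference above 0.15 in size.

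The median TPM was 97.7 (large) and 100.0 (small) in H2087 and 93.3 and 83.7 in H596, and 38 and 34 members reached 100 TPM. By the highest single transcript the median FPKM was 39.4 (large) and 44.7 (small) in H2087 and 32.7 and 30.5 in H596, the median difference of the large subunit genes was -0.31, and 3 members reached 100 FPKM in H2087. At a threshold of 50 FPKM 35 members passed in H2087 and 24 in H596, and at 200 none did (0 and 0). With subunits by structure the small subunit median in H2087 was 49.3 FPKM, and the median difference of the small subunit genes without a bacterial counterpart was -0.35 (chosen after seeing the data), beside -0.98 by symbol. The members held 0.577% (H2087) and 0.445% (H596) of the counts without mitochondrially encoded and cytosolic ribosomal protein genes, and 0.867% and 0.793% of the summed FPKM.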
